A study of Homo sapiens with 6 samples.

Results

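MHC class II molecules are pairs of an alpha and a beta chain that show peptides taken up into endosomes to CD4+ T cells. They are made constitutively by B cells, dendritic cells and macrophages, while most other cell types, melanocytes included, make them mainly after interferon gamma, and a share of melanomas does so without it. CIITA, the class II transactivator, does not bind DNA itself but is recruited to a complex of RFX, CREB and NF-Y proteins on the promoters of the class II genes, where it is needed for their transcription.

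The 10 genes described here are CIITA, CD74 (the invariant chain, which occupies the peptide groove during assembly), the classical chains HLA-DRA, HLA-DRB1, HLA-DPA1, HLA-DPB1 and HLA-DQA1, and the accessory chains HLA-DMA, HLA-DMB and HLA-DOA. All 10 were found by gene name among the 57914 genes of the deposited tables. They were selected on their joint rise in one of the sorted groups compared here, so that rise is described below without a test, and nothing is drawn from its direction.

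RNA was sequenced from A375, an established human melanoma line grown in high-glucose DMEM with 10% fetal calf serum and 2 mM L-glutamine. No interferon is named in the labels. Cells were stained with Aldefluor, a substrate that turns fluorescent when aldehyde dehydrogenase acts on it, and flow sorting took the brightest 5% (ALDH_High, 3 libraries) and the dimmest 5% (ALDH_Low, 3 libraries). Both groups are fractions of 1 line, and the labels do not say whether the 3 libraries of a group came from separate cultures, so p-values measure the spread between these libraries, which may be technical. Totals lay between 26692868 and 37830603 counts per library. SOX10 and S100B, markers of the melanocyte lineage, were present in all 6 libraries and higher in ALDH_High. SOX10 had 366 to 447 TPM (a transcript level corrected for gene length and depth) in ALDH_High and 102 to 116 TPM in ALDH_Low. S100B had 54.3 to 60.2 TPM and 1.04 to 5.17 TPM in the same order. The pigment cell genes PMEL, MLANA, TYR and DCT did not exceed 19 counts anywhere. Of the other genes on that list of 8, MITF, a melanocyte transcription factor, had 5.67, 5.87 and 6.95 TPM in ALDH_High and 14.9, 10.6 and 8.41 TPM in ALDH_Low, and PAX3 had 7.06 to 9.56 TPM. In bulk RNA, fewer cells that express a gene and less RNA per cell cannot be told apart.

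Class II promoters share an X box, bound by RFX and CREB, and a Y box, bound by NF-Y, at a fixed distance. RefSeq promoter windows on GRCh38.p14 (250 bases before the start site to 50 after it) were found for 8 of the 10 genes, 9 windows in all. HLA-DRA and CIITA had no entry. Shown next, on the strand of each gene, are the stretches of the 5 genes in which the letters CNAGNNAC, a core of the X box, were followed within 50 bases by CCAAT or its complement ATTGG, the core of the Y box. HLA-DQB1, a class II gene outside the 10, is added for comparison. Both cores are in capitals, and the sequence is that of the reference genome and not of the A375 alleles.
CD74 (chr5:150412951-150413005, minus strand): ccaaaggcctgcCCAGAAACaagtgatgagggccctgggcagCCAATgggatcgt
HLA-DRB1 (chr6:32589882-32589941, minus strand): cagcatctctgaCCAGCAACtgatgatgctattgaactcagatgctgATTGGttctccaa
HLA-DQA1 (chr6:32637290-32637350, plus strand): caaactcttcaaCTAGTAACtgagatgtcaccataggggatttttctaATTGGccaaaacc
HLA-DMA (chr6:32953164-32953224, minus strand): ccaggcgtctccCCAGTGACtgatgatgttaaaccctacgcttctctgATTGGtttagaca
HLA-DOA (chr6:33009646-33009706, minus strand): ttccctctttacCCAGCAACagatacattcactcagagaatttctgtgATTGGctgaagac
HLA-DQB1 (chr6:32666733-32666792, minus strand): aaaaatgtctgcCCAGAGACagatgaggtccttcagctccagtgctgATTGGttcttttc

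Between the cores lay 22 bases in CD74, 27 in HLA-DRB1 and HLA-DQB1, and 28 in HLA-DQA1, HLA-DMA and HLA-DOA. Among all 35116 windows of 300 bases, 1.65% held such a pair, against 5 of the 9 windows here. This pair was written down after the windows had been read. Of the motifs listed earlier and searched on both strands, CCAAT was in 7 of the 9 windows and in 34.6% of all, and the longer X box core CCNAGNNAC, whose letters overlap the shorter one, was in 5 and in 16.5%. The X2 letters TGACG was in 4 windows (24.6% of all), the interferon response letters GAAANNGAA in 4 (8.11%), the STAT letters TTCNNNGAA in 1, that of HLA-DQA1 (7.66%), and the E box CACGTG in none (7.26%). HLA-DMB held both cores farther apart, HLA-DPA1 held the X core without CCAAT in 1 of its 2 windows, and HLA-DPB1 held CCAAT without the X core. These matches describe letters in a window and are not measured binding sites.

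CIITA (ENSG00000179583, chromosome 16, 10866222 to 10943021, plus strand; this and the positions below are those of GENCODE 44 on GRCh38) had 34.9, 40.9 and 42.2 TPM in ALDH_High libraries 1, 2 and 3, and 5.39, 5.64 and 6.69 TPM in ALDH_Low libraries 1, 2 and 3. No ALDH_Low library came near the ALDH_High values, and within each group the 3 libraries were close. The log2 fold change of ALDH_High over ALDH_Low was 2.68 (SE 0.13, edgeR), which is 6.41-fold.

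CD74 (ENSG00000019582, chromosome 5, 150401637 to 150412969, minus strand) was the most abundant of the 10 in every library, at 2627, 2357 and 2280 TPM in ALDH_High and 302, 287 and 455 TPM in ALDH_Low. Its log2 fold change of 2.75 (SE 0.21) was close to that of CIITA. CD74 made up 62.8 ± 1.27% of the summed TPM of the 10 genes in ALDH_High and 64.5 ± 2.32% in ALDH_Low (SD, n = 3). In TPM its share was thus nearly the same, while the sum went from 539 ± 133 TPM in ALDH_Low to 3853 ± 224 TPM in ALDH_High. This depends on the gene lengths behind the TPM values. With counts divided by the exon length of GENCODE, CD74 was at 0.923 times the 5 classical chains in ALDH_High and 1.40 times in ALDH_Low.

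The DR pair, the main class II molecule on most cells, lies on chromosome 6. HLA-DRA (ENSG00000204287, 32439878 to 32445046, plus strand) had 615, 584 and 614 TPM in ALDH_High and 50.1, 30.4 and 69.3 TPM in ALDH_Low. Its ALDH_Low values spread widely while the ALDH_High values did not, and the log2 fold change was 3.54 (SE 0.27). HLA-DRB1 (ENSG00000196126, 32577902 to 32589848, minus strand) had 172, 153 and 142 TPM against 9.33, 5.06 and 14.7 TPM, a log2 fold change of 3.95 (SE 0.33). HLA-DRB1 shares much of its sequence with HLA-DRB5 and the pseudogene HLA-DRB6, so the division of reads among them is uncertain.

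The DP pair behaved unevenly. HLA-DPA1 (ENSG00000231389, 33064569 to 33080775, minus strand) had 365, 346 and 361 TPM in ALDH_High and 58.1, 53.7 and 69.3 TPM in ALDH_Low, a log2 fold change of 2.51 (SE 0.14). HLA-DPB1 (ENSG00000223865, 33075990 to 33089696, plus strand) had 99.4, 88.8 and 92.6 TPM against 37.2, 40.3 and 43.6 TPM, and its log2 fold change of 1.17 (SE 0.14) was the smallest of the 10. The TPM ratio of HLA-DPA1 to HLA-DPB1 was 3.82 ± 0.133 in ALDH_High and 1.5 ± 0.141 in ALDH_Low (SD, n = 3), and the 2 ranges did not overlap. Their annotated bodies overlap on opposite strands, and the strand setting of the counting is not given in the sources used here, so the division of reads in the overlap is uncertain.

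For the DR and DM pairs the alpha to beta ratio was lower in ALDH_High, unlike for DP. HLA-DRA to HLA-DRB1 was 3.91 ± 0.383 in ALDH_High and 5.37 ± 0.642 in ALDH_Low, and HLA-DMA to HLA-DMB was 3.54 ± 0.142 and 5.50 ± 1.08 (SD, n = 3). CD74 was at 1.97 ± 0.10 times the summed TPM of the 5 classical chains in ALDH_High and 2.15 ± 0.186 times in ALDH_Low, with overlapping ranges. The gene lengths behind the TPM values are not stated, and ratios between genes depend on them. With counts divided by the exon length of GENCODE, the DP ratio was 4.85 and 1.90, and CD74 was at 0.923 times the classical chains in ALDH_High and 1.40 times in ALDH_Low.

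HLA-DQA1 (ENSG00000196735, 32628179 to 32647062, plus strand), the alpha chain of DQ, was low in both groups, at 26.7, 16.1 and 17.6 TPM in ALDH_High and 1.22, 0.200 and 2.02 TPM in ALDH_Low. In counts, the ALDH_Low libraries held 35, 4 and 44, so its log2 fold change of 4.09 (SE 0.55) is the least precise of the 10. Leaving out ALDH_Low library 2 gave 3.59, and leaving out library 3 of that group gave 4.75. HLA-DQA1 also has a near-identical neighbour, HLA-DQA2, with which reads may be shared.

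The DM pair exchanges the CD74 remnant in the groove for peptide, and DO, built from HLA-DOA and HLA-DOB, inhibits DM. HLA-DMA (ENSG00000204257, 32948613 to 32969094, minus strand) had 119, 105 and 113 TPM in ALDH_High and 20.1, 13 and 22.6 TPM in ALDH_Low (log2 fold change 2.54, SE 0.21). HLA-DMB (ENSG00000242574, 32934629 to 32941028, minus strand) had 32.0, 30.2 and 32.7 TPM against 3.91, 1.93 and 4.87 TPM (3.09, SE 0.29). HLA-DOA (ENSG00000204252, 33004182 to 33009591, minus strand) had 21.1, 14.8 and 17.6 TPM against 0.906, 0.285 and 0.905 TPM, and at 4.62 (SE 0.36) its log2 fold change was the largest of the 10 in edgeR. On the log2(TPM + 1) scale, which shrinks low genes, it was 3.48, below HLA-DRB1 at 3.97 and HLA-DRA at 3.65. The TPM ratio of HLA-DOA to HLA-DMA, a comparison added after the values were seen, was 0.158 ± 0.0185 in ALDH_High and 0.0357 ± 0.0121 in ALDH_Low (SD, n = 3).

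**Figure D1:**
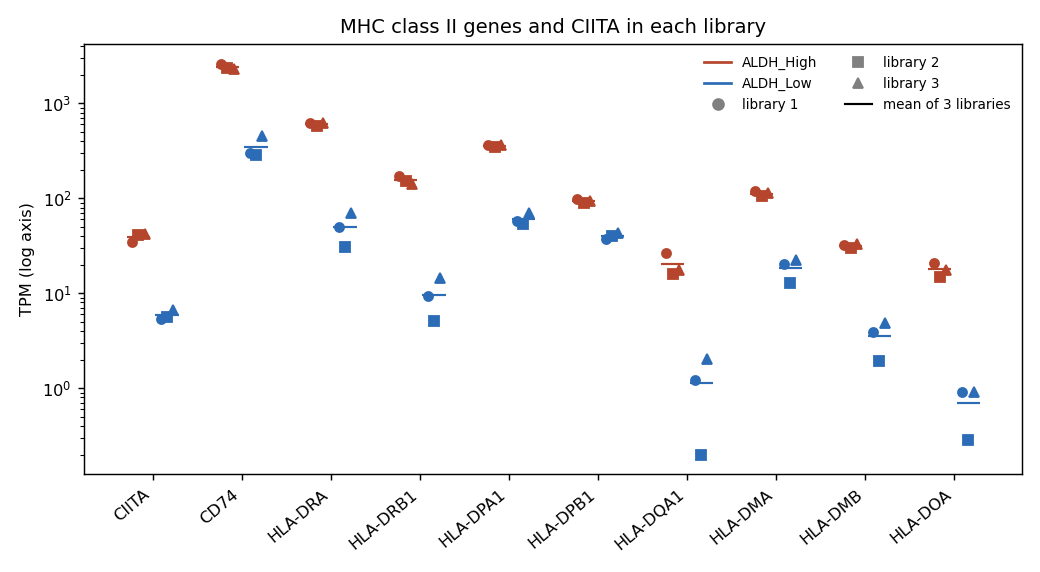
TPM (log axis) of the 10 genes in each of 6 libraries, red for ALDH_High and blue for ALDH_Low, with a symbol per library number and a line at the mean of 3 libraries. In all 10 genes the ALDH_High symbols lie above the ALDH_Low symbols, with the narrowest gap in HLA-DPB1 and the widest in HLA-DOA, and the blue square (ALDH_Low library 2) is the lowest symbol in most columns.

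All 10 genes passed the filter on low counts, and the groups did not overlap in any of them. Over all 17047 genes tested, 18.6% had their 3 ALDH_High libraries above the 3 ALDH_Low libraries, and 20.6% passed the threshold of an adjusted p of 0.05 (edgeR quasi-likelihood F-test, Benjamini-Hochberg), 10.8% higher and 9.83% lower in ALDH_High. Because the 10 genes were selected on this contrast, their count is not read against these shares. Their median log2 fold change was 2.92, beside -0.013 for all genes tested, and their places when all genes were ordered by log2 fold change ran from 44 (HLA-DOA) to 997 (HLA-DPB1). In ALDH_High the order of mean TPM was CD74, HLA-DRA, HLA-DPA1, HLA-DRB1, HLA-DMA, HLA-DPB1, CIITA, HLA-DMB, HLA-DQA1 and HLA-DOA, and of these neighbours only HLA-DQA1 and HLA-DOA had overlapping ranges. In ALDH_Low, HLA-DPA1 and HLA-DPB1 moved up to the second and the fourth place, and only CD74 and HLA-DPA1, HLA-DPB1 and HLA-DMA, and CIITA and HLA-DMB were neighbours without overlap.

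The spread between libraries of 1 group was not itself the rule by which these genes were chosen. A choice on a joint rise can still favour genes whose ALDH_High libraries agree, so the spread is given as a description. The genes tested were not matched to the 10 for level, and in ALDH_Low library 2 HLA-DQA1 had only 4 counts and HLA-DOA 19. By log2 CPM (counts scaled to library size), in ALDH_Low all 10 were highest in library 3 and 8 were lowest in library 2, whereas over all genes tested 35.1% were highest in library 3 and 33.6% lowest in library 2. In TPM, HLA-DOA was level in libraries 1 and 3. The SD of log2 CPM among the 3 ALDH_Low libraries had a median of 0.55 over the 10 genes, against 0.18 over all genes tested, and was larger than that in 9 of the 10, all but HLA-DPB1. The highest over the lowest ALDH_Low library was 1.24 in TPM for CIITA, 1.29 for HLA-DPA1 and 1.17 for HLA-DPB1, but 2.28 for HLA-DRA, 2.90 for HLA-DRB1, 2.52 for HLA-DMB, 3.18 for HLA-DOA and 10.1 for HLA-DQA1. CIITA thus varied less between these libraries than 8 of the other 9 genes.

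In ALDH_High the 10 genes were tighter. Their median SD was 0.17, against 0.22 over all genes tested, and only 3 of the 10 exceeded that value. By log2 CPM, library 1 was the highest of the 3 in 9 of the 10, CIITA being the exception with its lowest value there (in TPM, HLA-DMB was highest in library 3), and 43.3% of all genes tested were highest in that library. S100B, a calcium-binding protein gene of the melanocyte list that is no class II gene, went in the same order among the ALDH_Low libraries, at 2.22, 1.04 and 5.17 TPM, against 60.2, 54.9 and 54.3 TPM in ALDH_High. SOX10, of the same list, did not, at 102, 116 and 116 TPM in ALDH_Low. Whether the purity of the sort differed between libraries was not tested.

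**Figure D2:**
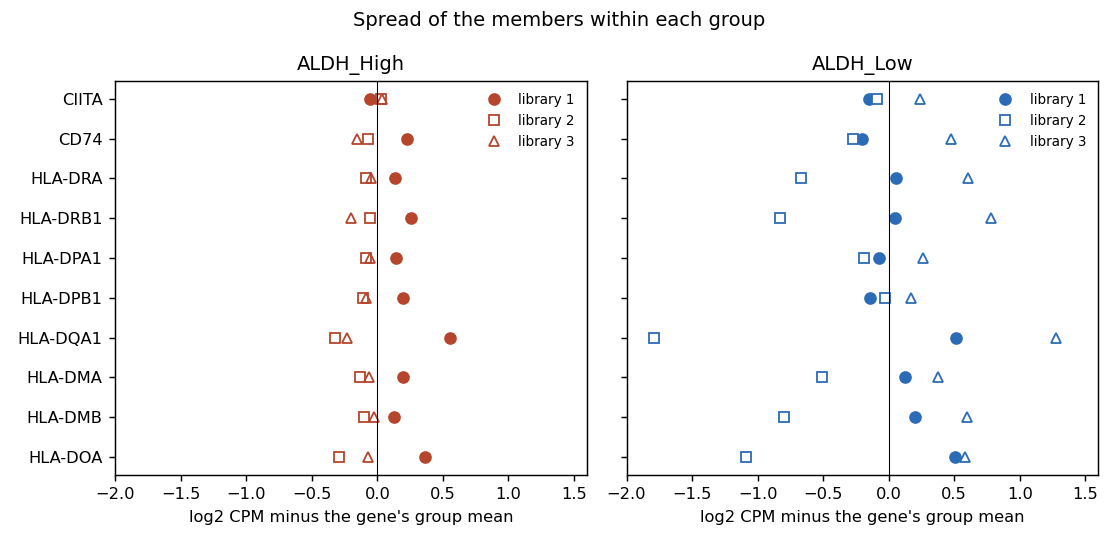
Log2 CPM of each gene minus its own mean over the 3 libraries of a group, for ALDH_High (left) and ALDH_Low (right), with a symbol per library. On the right, library 3 lies above 0 and library 2 below 0 for all 10 genes, most widely for HLA-DQA1, while on the left the symbols stay close to 0 and library 1 is highest in 9 genes.

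The authors' deposited table also holds log2 coefficients of their own DESeq2 model, in which 4 groups, named CAS, HIG, LOW and OUT1A3, are each set against a group named 1A3. The names are not explained in the sources used here, and the libraries of CAS, OUT1A3 and 1A3 were not analysed here. All 4 coefficients share the 1A3 libraries. HLA-DRB1 was left out because the cells of its row are shifted, which leaves 9 genes. In the authors' deposited table the HIG coefficient of CIITA was 0.38 (SE 0.29) and the LOW coefficient -2.32 (SE 0.29), with -0.97 (SE 0.39) for OUT1A3 and -1.11 (SE 0.29) for CAS. For HLA-DRA the authors' deposited table gives 0.48 (SE 0.45), -3.07 (SE 0.45), 0.19 (SE 0.61) and -0.58 (SE 0.45) in the same order.

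HIG above LOW was fixed by the choice of the genes, if these are the sorted groups as their names read, so the order of the pair is no result and their distances from 1A3 are given as a description. LOW was the lowest of the 4 coefficients in 9 of 9 genes in the authors' deposited table, from -4.57 (HLA-DQA1) to -1.40 (HLA-DPB1), and lay more than 2 SE below 0 in all 9. The HIG coefficients in the authors' deposited table lay within 2 SE of 0 in 8 of 9, the exception being HLA-DOA at 2.38 (SE 0.46), and ran from -0.46 (HLA-DQA1) upwards. CAS lay between LOW and HIG in 9 of 9 and below OUT1A3 in 9 of 9 genes of the authors' deposited table, with a median of -0.69, and OUT1A3 lay within 2 SE of 0 in 8 of 9, with a median of 0.10. HLA-DRB5, HLA-DRB6, HLA-DQB1, HLA-DQA2 and HLA-DQB2, class II loci outside the 10 that are taken up again further on, had LOW coefficients of -3.54, -3.32, -4.13, -4.77 and -3.80 in the authors' deposited table. HLA-DOB went the other way in the authors' deposited table, with LOW at 0.18 (SE 0.68) above HIG at -0.53 (SE 0.70), OUT1A3 at -0.86 (SE 0.98) and CAS at -0.97 (SE 0.71). The medians of the same coefficients over the 16887 tested genes with usable cells were 0.088 (CAS), 0.021 (HIG), 0.014 (LOW) and 0.014 (OUT1A3) in the authors' deposited table. How many of these 16887 genes met the conditions counted above was not computed. The counts out of 9 are therefore a description and no result about the class II genes.

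**Figure D3:**
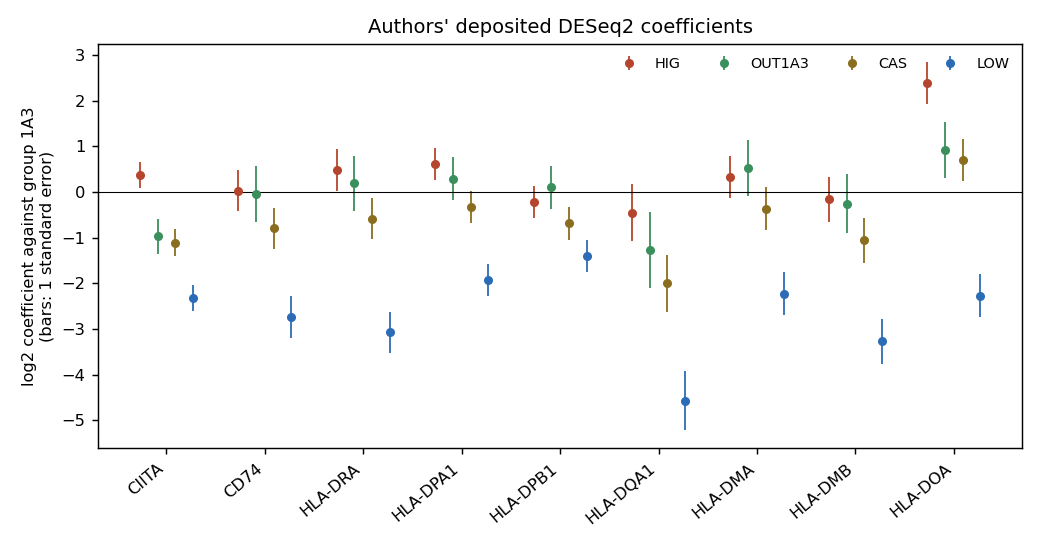
Log2 coefficients of the authors' deposited DESeq2 model (vertical axis, bars of 1 SE) for 9 class II genes, each of 4 groups against group 1A3, which stands at 0. The LOW points are the lowest for every gene, between -4.57 and -1.40, while the HIG points lie near 0 except for HLA-DOA at 2.38.

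Other class II loci that were not part of the selection went with it. Of 12 such loci listed, 10 were in the tables and 6 were high enough to be tested. Past the threshold, 5 of the 6 were higher in ALDH_High and 0 lower, beside 10.8% and 9.83% of all genes tested. HLA-DQB1, the beta chain of DQ, had 86.9, 52.7 and 65.0 TPM in ALDH_High and 4.17, 0.778 and 8.71 TPM in ALDH_Low (log2 change 3.85, SE 0.57, edgeR adjusted p 0.000976), again lowest in ALDH_Low library 2 and highest in library 3. HLA-DRB5 (3.93, SE 0.34, edgeR adjusted p 3.78e-05) and the pseudogene HLA-DRB6 (3.43, SE 0.32, 5.77e-05) have near-identical relatives in HLA-DRB1, and HLA-DQA2 (4.34, SE 0.57, 0.000489) and HLA-DQB2 (3.58, SE 0.39, 0.000172) in HLA-DQA1 and HLA-DQB1, so these counts are uncertain and are no independent evidence. The exception was HLA-DOB, the other chain of DO, at 0.324, 0.478 and 0.598 TPM in ALDH_High and 0.506, 0.769 and 0.932 TPM in ALDH_Low (-0.72, SE 0.41, edgeR adjusted p 0.267), and stayed below 1 TPM in all 6 libraries while HLA-DOA did so in ALDH_Low alone. HLA-DRB9, HLA-DPA2, HLA-DPB2 and HLA-DPA3, all pseudogenes, did not exceed 1 count anywhere. Over the fits that left out 1 library, log2 fold changes ran from 3.86 to 5.59 for HLA-DQA2, 3.29 to 4.23 for HLA-DQB2 and 3.36 to 4.71 for HLA-DQB1. Each was largest without ALDH_Low library 3.

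Of the 8 genes whose proteins carry CIITA to class II promoters, 1 passed, beside 20.6% of all genes tested. This was RFX5, a DNA-binding subunit of RFX, with 56.7, 67.3 and 82.8 TPM in ALDH_High and 38.7, 48.9 and 42.5 TPM in ALDH_Low (log2 change 0.61, SE 0.13, edgeR adjusted p 0.00957). Its partners did not pass: RFXAP had a log2 fold change of -0.41 (SE 0.22, edgeR adjusted p 0.234) and RFXANK of 0.08 (SE 0.16, 0.787), the latter below 0 (-0.11) without ALDH_High library 1. The median of the 8 was 0.023. Among 11 tested co-factors and regulators of CIITA, such as acetyltransferases, deacetylases and the repressor PRDM1, the median was 0.15 and only HDAC1, a histone deacetylase, passed, lower in ALDH_High at -0.34 (SE 0.10, edgeR adjusted p 0.0328). HDAC1 passed only in the fit without ALDH_High library 1 when each library was left out, and missed the threshold in the other 5 (adjusted p 0.0581 to 0.128).

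Interferon gamma induces CIITA through its receptor, the kinases JAK1 and JAK2, and IRF1. Of 22 genes listed for that axis, 15 were tested, 2 were higher and 3 lower past the threshold, beside 10.8% and 9.83% of all genes tested, and the median log2 fold change was -0.12. JAK2 (-0.12, SE 0.17, edgeR adjusted p 0.687), IFNGR1 (0.19, SE 0.15, 0.414) and the feedback inhibitor SOCS1 (-0.52, SE 0.47, 0.493) did not pass.

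IRF1, a transcription factor that binds the interferon-responsive CIITA promoter, fell. It had 10.0, 10.7 and 8.50 TPM in ALDH_High and 22.8, 22.9 and 23.0 TPM in ALDH_Low, so the groups stood clearly apart in the direction opposite to CIITA (log2 fold change -1.28, SE 0.15, edgeR adjusted p 0.000222). CD274, the gene of PD-L1, fell by 1.6 on the log2 scale (SE 0.26, edgeR adjusted p 0.00176) and GBP1, a guanylate-binding protein, by 1.05 (SE 0.24, 0.0108). GBP1 lost its call without ALDH_High library 2 (adjusted p 0.0520). The 2 genes of this list that rose were GBP2 (2.76, SE 0.32, edgeR adjusted p 0.000252), with 5.61, 3.92 and 3.64 TPM against 0.618, 0.465 and 0.806 TPM, and the receptor subunit IFNGR2 (0.79, SE 0.15, 0.00426). The interferon gamma chemokines CXCL9, CXCL10 and CXCL11 had 0 counts in every library, and IRF8 and IDO1 at most 2.

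**Figure D4:**
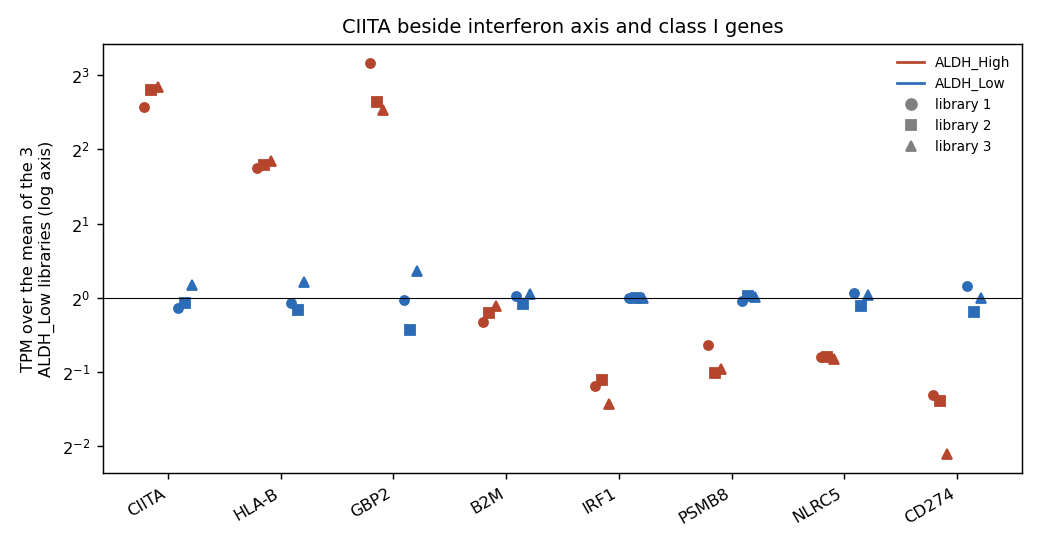
TPM of each library over the mean of the 3 ALDH_Low libraries (log axis) for CIITA, class I genes and interferon axis genes, red for ALDH_High and blue for ALDH_Low. CIITA, HLA-B and GBP2 lie above 1 in all ALDH_High libraries, B2M lies near 1, and IRF1, PSMB8, NLRC5 and CD274 lie below 1.

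Class I presentation, which shows peptides from inside the cell to CD8+ T cells, was divided. All 15 listed genes were tested, and 5 were higher and 5 lower in ALDH_High past the threshold, beside 10.8% and 9.83% of all genes tested. Among the higher ones were heavy chains: HLA-B (1.74, SE 0.14, edgeR adjusted p 2.55e-05) had 138, 142 and 147 TPM against 39.2, 36.7 and 47.6 TPM, and HLA-C (0.97, SE 0.14, 0.000968), HLA-E (0.80, SE 0.13, 0.0019) and HLA-F (1.40, SE 0.25, 0.00294) went the same way. Among the lower ones, NLRC5, the relative of CIITA that activates class I genes, had 6.56, 6.54 and 6.39 TPM against 11.9, 10.5 and 11.7 TPM (-0.86, SE 0.14, edgeR adjusted p 0.00222), and PSMB8, a subunit of the immunoproteasome, fell by 0.90 (SE 0.15, 0.00238). B2M, the shared light chain, did not pass (-0.26, SE 0.10, edgeR adjusted p 0.105). HLA-B and HLA-C together had 249.7 ± 7.85 TPM in ALDH_High and 94.3 ± 7.83 TPM in ALDH_Low (SD, n = 3).

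For the enzymes and membrane proteins of the endosomes in which class II is loaded, all 16 genes were tested. Past the threshold, 2 were higher and 1 lower, a share near the 20.6% of all genes tested, and the median was 0.22. CTSF, a cathepsin able to cut CD74, had 19.6, 19.4 and 17.7 TPM in ALDH_High and 8.0, 6.67 and 6.14 TPM in ALDH_Low (log2 change 1.40, SE 0.15, edgeR adjusted p 0.000161). LAMP1, a lysosomal membrane protein, was higher by 0.42 (SE 0.11, edgeR adjusted p 0.0182), and AP1S1, an adaptor subunit for transport to endosomes, fell by 0.46 (SE 0.14, 0.0400). LAMP1 lost its call without any 1 of the ALDH_Low libraries (adjusted p 0.0520 to 0.0634), and AP1S1 kept its call, among the 6 libraries left out in turn, only when that was ALDH_High library 1 (otherwise 0.0777 to 0.154). CTSS, the cathepsin that cuts CD74 in most antigen-presenting cells, was at 0.848 TPM or less in all 6 libraries (0.09, SE 0.59, edgeR adjusted p 0.943, with a negative sign without ALDH_High library 1 or ALDH_Low library 2). IFI30, the thiol reductase of this compartment that interferon gamma induces, was at 43.3, 26.9 and 26.5 TPM in ALDH_High and 59.5, 48.0 and 45.4 TPM in ALDH_Low and missed the threshold (-0.69, SE 0.23, edgeR adjusted p 0.0549). Without ALDH_High library 1 its log2 fold change was -1.02 (adjusted p 0.000992).

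Of MARCHF1 and MARCHF8, ubiquitin ligases that remove class II from the surface, and CD83, which opposes MARCHF1, 0 of 3 passed in edgeR, in DESeq2 or in limma on log2(TPM + 1), and 0 had an unadjusted p below 0.05 in edgeR. The symbols of both ligases had been turned into dates in the deposited tables, and they were matched by Ensembl identifier. Of MIF, the ligand of CD74, its homologue DDT and the co-receptors CD44, CXCR4, CXCR2 and ACKR3, 3 of 6 were tested, and by the same measures 0 passed. MIF had 913, 678 and 583 TPM in ALDH_High and 740, 688 and 688 TPM in ALDH_Low (0.01, SE 0.18, edgeR adjusted p 0.987), and CD44 had 639, 688 and 632 TPM against 686, 654 and 556 TPM. The sign of both turned under upper-quartile scaling and in some fits without 1 library.

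Genes that lie near the class II loci or near CIITA were read in the same way. Of 19 tested neighbours of the class II region on chromosome 6, 2 were higher and 3 lower past the threshold, near the 20.6% of all genes tested, with a median of -0.038. TAP2, PSMB8, TAP1 and PSMB9 lie inside that region, between HLA-DOB and HLA-DMB, but were listed under class I presentation. PSMB8 (-0.90, SE 0.15, edgeR adjusted p 0.00238) and PSMB9 (-1.16, SE 0.24, 0.00671) were lower, and TAP1 (-0.20, SE 0.19, 0.529) and TAP2 (-0.41, SE 0.13, 0.0525) did not pass. KIFC1, a mitotic kinesin gene, was higher by 0.80 (SE 0.10, edgeR adjusted p 0.000466) and the collagen gene COL11A2 by 1.22 (SE 0.24, 0.00479), while GPSM3 fell by 0.97 (SE 0.16, 0.00219), HSD17B8 by 1.52 (SE 0.28, 0.0038) and PFDN6 by 0.50 (SE 0.14, 0.029). PFDN6 and RGL2 overlap on opposite strands, and PFDN6 lost its call without ALDH_High library 2 or 3 or ALDH_Low library 2 or 3 (adjusted p 0.0503 to 0.095). BRD2, a bromodomain gene whose body overlaps the upstream end of HLA-DMA on the opposite strand, had a log2 fold change of -0.11 (SE 0.10, edgeR adjusted p 0.499).

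Around CIITA on chromosome 16, 9 of 10 neighbours were tested, 4 were higher and 1 lower past the threshold (10.8% and 9.83% of all genes tested), and the median was 0.26. DEXI, which overlaps the far end of CIITA on the opposite strand, so that reads there are uncertain for both, went against it, with 16, 12.8 and 14.3 TPM in ALDH_High and 23.1, 26.8 and 22.8 TPM in ALDH_Low (-0.80, SE 0.16, edgeR adjusted p 0.00517). CLEC16A, which follows, did not pass (0.26, SE 0.14, edgeR adjusted p 0.23). EMP2, a membrane protein gene, was higher at 86.7, 85.0 and 83.9 TPM against 39.0, 29.6 and 32.7 TPM (1.29, SE 0.13, edgeR adjusted p 0.000109), as were SNN (1.0, SE 0.21, 0.00707), ZC3H7A (0.48, SE 0.13, 0.0247) and TVP23A (1.5, SE 0.41, 0.0272). TVP23A, which overlaps NUBP1 on the opposite strand, lost its call whichever of the 6 libraries was left out (adjusted p 0.0543 to 0.119), and ZC3H7A lost its call without ALDH_High library 2 or 3 or ALDH_Low library 1 or 2 (0.0508 to 0.109).

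**Figure D5:**
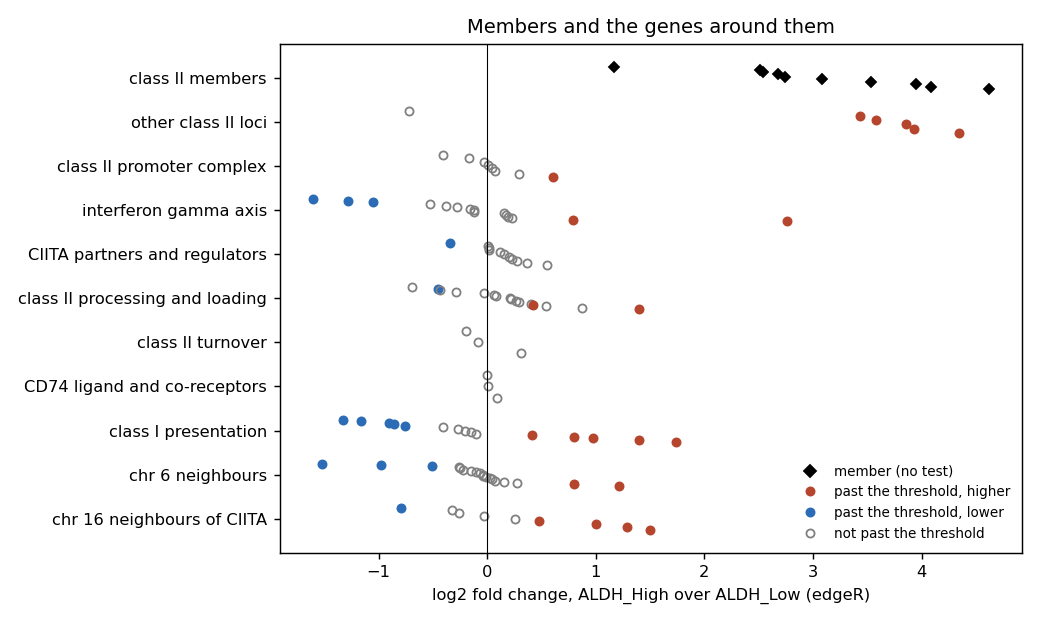
Log2 fold changes of ALDH_High over ALDH_Low (edgeR) for the 10 selected genes (diamonds, no test) and for the genes of 10 lists around them, filled where past the threshold and open where not. The diamonds run from 1.17 to 4.62 and the tested class II loci other than HLA-DOB lie among them, while most genes of the other lists lie near 0 and on both sides of it.

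Over all 10 lists, 105 genes were tested, of which 21 were higher and 14 lower in ALDH_High past the threshold, beside 10.8% and 9.83% of all genes tested, with a median of 0.017. These lists were composed by role with earlier results of these data known, and the 5 class II loci account for 5 of the 21.

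Class II transcripts are abundant in leukocytes, so their markers were read in the same libraries. Of 37 markers of 5 leukocyte types, 22 had more than 3 counts in some library, 6 were at 0 in all, and the summed TPM of the 37 was 22.8 to 33.9 in ALDH_High and 20.5 to 30.3 in ALDH_Low. PTPRC (CD45), MS4A1, CD79A, CD3E, CLEC9A, CD1C, FCGR1A, AIF1 and TYROBP, picked by hand from the 37, did not exceed 4 counts anywhere. Other markers of the same types did, such as CSF1R at 6 to 54 counts, CD163 at 0 to 26 and CD14 at 3 to 31. Of the 37, 27 did not exceed 14 counts. CSF1R was lower in ALDH_High without passing (-1.64, SE 0.53, edgeR adjusted p 0.0524). By mean TPM in each group, the most abundant of the 37 were CORO1A, at 9.99 to 14 TPM, and CD22, at 2.30 to 6.05 TPM. ITGAX (0.693 to 1.74 TPM) and LAG3 (0.643 to 2.43 TPM) were also present in all 6 libraries, and none of these 4 passed in edgeR. Of the macrophage and monocyte markers 5 were tested. Past the threshold, 1 was higher and 2 lower, beside 10.8% and 9.83% of all genes tested. LYZ was higher, at 7.71, 3.10 and 3.29 TPM in ALDH_High and 1.72, 0.984 and 1.72 TPM in ALDH_Low (1.65, SE 0.44, edgeR adjusted p 0.024). CD14 (-1.96, SE 0.47, edgeR adjusted p 0.0142) and FCER1G (-1.46, SE 0.46, 0.0475) were lower in ALDH_High. Of LYZ, CD14 and FCER1G, DESeq2 called 2 (not FCER1G, adjusted p 0.221) and limma on log2(TPM + 1) called 0. LYZ lost its edgeR call without any 1 of the ALDH_Low libraries (0.0548 to 0.0897), CD14 without ALDH_High library 2 or ALDH_Low library 2 or 3 (0.0599 to 0.065), and FCER1G whichever library was left out (0.057 to 0.20). Among the other leukocyte lists 5 markers were tested and 0 passed in edgeR, DESeq2 or limma, and 1 had an unadjusted p below 0.05 in edgeR.

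The 5 genes whose pattern over the 6 libraries was most like the mean of the 10 were LINC02119, LINC01198, AL121578.3, VWA1 and AC092821.1. Likeness was the distance between log2 CPM values centred on each gene's mean. It was ranked among the 14029 named genes that averaged 1 CPM or more, without the 10 and without the other class II loci. How those loci would rank was not examined. LINC02119 was the closest, at a distance of 0.25, with 5.16, 3.69 and 3.88 TPM in ALDH_High and 0.440, 0.286 and 0.635 TPM in ALDH_Low. It was nearer to the mean pattern than any of the 10 genes except HLA-DMB, whose distance was 0.24. Its distance is the smallest of 14029, set against those of only 10 genes, so nothing is drawn from this order. The mean pattern lay between 1.46 and 1.80 in ALDH_High and between -2.21 and -1.05 in ALDH_Low. It thus largely holds the contrast on which the 10 were chosen, and a gene with a similar log2 fold change comes out as alike. VWA1, a gene of an extracellular matrix protein, had 8.15, 5.37 and 5.75 TPM against 0.864, 0.362 and 0.849 TPM, at a distance of 0.45. Farthest from their own mean were HLA-DPB1 at 2.57, HLA-DQA1 at 2.12 and HLA-DOA at 2.02.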

How the data were processed

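Counts of 57914 genes and TPM values in 6 libraries were used. The deposited counts are whole numbers and were read as rounded estimated counts: 133 to 177 genes per library were at 0 counts although their TPM was above 0. Per the submitters' processing notes, FastQC 0.11.3, STAR 2.5.1b, HTSeq 0.6.1, DESeq2 and build GRCh38 were used, and annotation, strand setting and gene lengths are not given in the sources used here. The deposited log2 coefficients and their standard errors, kept as a score, are the authors' DESeq2 output per the file headers, and 226 rows with shifted cells were left out of their use. The 261 rows without a gene name held 0.0213% to 0.0267% of a library's counts, carry Ensembl identifiers and stayed in.

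Genes kept by filterByExpr (17047) were scaled with TMM and tested with edgeR 4.0.16 (glmQLFit, glmQLFTest, two-sided), with Benjamini-Hochberg adjustment over all of them and a threshold of 0.05. An SE is the log2 fold change over the square root of F. The code was tested on simulated data. Alternatives used edgeR, DESeq2 1.42.0 and limma 3.58.1. The replicate number was not a term, since the labels state no pairing. Residuals of same-numbered libraries correlated at 0.15, 0.076 and 0.11, which does not show that pairing was absent. Positions come from GENCODE 44 and promoter windows from RefSeq, both on GRCh38.

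The 10 genes and the lists were chosen with earlier results of these data known. Named are all 10, every other class II locus, from each further list up to 6 genes past the threshold with the smallest p, genes whose role needed naming, and the 5 with the most alike pattern. Markers, MARCHF1, MARCHF8, CD83, DDT, TAP1, TAP2, PSMB9 and genes at 0 or a few counts were named outside this rule. Some listed genes are not reported here.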

Additional observations from a re-analysis of the deposited data

How the results depend on the processing

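All 10 class II genes stayed above 0 in the 15 alternatives (14 for HLA-DQA1, which has fewer than 10 counts in ALDH_Low library 2). Their median log2 fold change was 3.21 without ALDH_Low library 3, and 2.71 to 3.21 over the 6 fits that left out a library. No scaling moved the median of all genes by more than 0.1. The number of genes past the threshold fell from 3513 to 2006 when limma was run on log2(TPM + 1) with low genes kept, where the cause was not tested, and to 1930 at an adjusted p below 0.01, a stricter threshold by construction. With upper-quartile factors the calls were 1644 higher and 1931 lower, against 1838 and 1675. The list genes past the threshold numbered 27 to 39, against 35. With the replicate block there were 3748 genes and 35 list genes past the threshold, and the median of the 10 was 2.97.

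Counts divided by GENCODE exon length in place of TPM gave, for ALDH_High and ALDH_Low, 10.2 and 13.9 for HLA-DRA to HLA-DRB1, 4.85 and 1.90 for HLA-DPA1 to HLA-DPB1, 5.34 and 8.28 for HLA-DMA to HLA-DMB, and 0.923 and 1.40 for CD74 to the classical chains, since the lengths differ between the sources. Of 47 other genes that were tested and followed through the alternatives, 29 kept direction and call in every one, 14 changed a call and 4 changed sign, all 4 without a call. Over the fits that left out 1 library, the log2 fold changes reached up to 0.21 for RFXANK, 0.46 for CTSS, 0.19 for MIF and 0.072 for CD44. The sign changes were RFXANK at -0.11 without ALDH_High library 1, CTSS at -0.54 without ALDH_High library 1 and -0.31 without ALDH_Low library 2, MIF at -0.045 (upper-quartile factors), -0.035 (replicate block), -0.25 (without ALDH_High library 1) and -0.026 (without ALDH_Low library 2), and CD44 at -0.048 (upper-quartile factors), -0.021 and -0.0014 (without ALDH_High libraries 1 and 2) and -0.058 (without ALDH_Low library 3). HDAC1, TVP23A and FCER1G lost their calls under the replicate block, where IFI30 gained one (log2 fold change -0.74). HLA-DOA was at 3.48 on the log2(TPM + 1) scale, against 4.62. Among the 10 and the genes followed through the alternatives, depth limits HLA-DQA1, HLA-DQA2, HLA-DOB, CTSS, SOCS1, TVP23A, CD14 and FCER1G. These had fewer than 10 counts in some libraries. In ALDH_High, CD14 had 3, 7 and 12 counts and FCER1G 6, 5 and 6.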
